A study of Homo sapiens with 10 samples.

Results

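The integrated stress response and the amino acid supply genes it controls were followed through 34 named genes in 2 human breast cancer cell lines in which Che-1 had been depleted. The 34 genes were listed by name: the eIF2 kinases, the transcription factor ATF4 with its partner factors, and ATF4 targets in feedback, amino acid transport and serine synthesis. Of 18417 genes with a probe set of their own on the array, 33 were members of the list, and all 33 passed the filter on low values that left 12892 genes for testing. The remaining member, CBS, an enzyme that makes cystathionine, was not measured by itself because its probe set is annotated to a 2nd gene as well. The mean over the 5 siControl arrays was at or above the filter level for each of the 33, so none entered only through the depleted cells.

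SKBR3 and MDA-468 are cultured human breast cancer lines, and both are labelled as expressing mutant p53. Each was grown in RPMI 1640 with 10% fetal calf serum, transiently transfected with a double-stranded siRNA, and lysed at 48 h. The control cells carried siControl in place of siChe-1, so every group had been transfected, and Che-1 is the product of AATF. SKBR3 contributed 2 siControl and 2 siChe-1 arrays, and MDA-468 contributed 3 and 3. The labels name 1 reagent against Che-1, and they do not say whether arrays of a group came from separate cultures. The p-values therefore measure the spread between these arrays, which may be technical.

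Cells that run short of amino acids, accumulate unfolded protein, lack heme or sense double-stranded RNA switch on one of 4 kinases that phosphorylate the initiation factor eIF2. Phosphorylated eIF2 slows most translation while favouring that of ATF4, and ATF4, often paired with a C/EBP factor, then turns on genes for amino acid import, amino acid synthesis and feedback. Because ATF4 and eIF2 are controlled largely at the protein level, an mRNA array reads the output genes and not the switch itself.

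The targeted mRNA checked the labels. AATF read 8.69 and 8.68 on the SKBR3 siControl arrays against 8.09 and 7.97 on the siChe-1 arrays, a log2 change of -0.66 ± 0.10 (SE, adjusted p = 0.000778), and in MDA-468 it read 8.86, 8.87 and 8.90 against 7.08, 7.13 and 7.29, a change of -1.71 ± 0.08 (adjusted p = 2.16e-08). The depletion was thus shallower in SKBR3, with a difference between the lines of 1.05 (adjusted p = 0.000215). ERBB2 was bright in SKBR3 (12.3) and EGFR and KRT5 were bright in MDA-468 (12.2 and 12.5). The rest of the luminal or ERBB2 marker list did not split the lines alike. The siControl means, SKBR3 then MDA-468, were 10.3 and 7.89 for GRB7, 12.9 and 12.7 for KRT8, and 12.7 and 12.5 for KRT18. They were 12.9 and 13.0 for KRT19, 9.08 and 9.09 for FOXA1, 6.27 and 9.29 for GATA3, and 5.03 and 6.32 for ESR1. CDH1, an epithelial marker, was at 5.12 in SKBR3, below the filter level of 6.03. Of the leukocyte, fibroblast and endothelial markers with a probe set, 3 of 5, 3 of 5 and 3 of 4 were below that level in every group. The 2 leukocyte markers that were tested, CD14 and ITGAM, moved with siChe-1: CD14 rose in SKBR3 by 0.53 (5.42 to 5.94, below the filter level) and in MDA-468 by 0.64 (9.51 to 10.15), and ITGAM rose in MDA-468 by 1.07 (6.05 to 7.11). The 4 basal-line markers tested also rose in MDA-468, by 0.72 (EGFR), 0.82 (KRT5), 1.10 (VIM) and 1.95 (KRT14). The part of these markers in the members' changes was not tested. Interferon-stimulated genes moved with siChe-1 in both lines. All 26 tested members of that list rose in each line, with median log2 changes of 5.41 (SKBR3) and 4.93 (MDA-468), and the mean of its 27 measured genes ran from 5.53 to 5.62 on the SKBR3 siControl arrays and 10.66 to 10.76 on siChe-1, and from 6.61 to 6.67 and 11.29 to 11.35 in MDA-468. Their part in the changes described below was not tested. In bulk RNA, fewer cells of a kind and less RNA per cell cannot be told apart.

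The sequences that carry the pathway are short elements near the start sites of its targets. RefSeq promoter windows of 300 bases (250 before to 50 after a start, GRCh38.p14) were found for 26 of the 33 measured members, 40 windows in all. The C/EBP-ATF composite element, searched as TGATGNAA on both strands, was in 8 of these 40 windows (20%), against 3.62% of 35116 promoters of the same length. Many of the members were listed because they are known ATF4 targets, so this share describes the choice of genes and is no test. The cAMP response element TGACGTCA was in 1 member window, that of PPP1R15A (1.85% of all promoters), and an interferon-stimulated response element, searched on both strands as GAAA, any 2 bases and GAAA again, was in 2, those of EIF2AK2 and ATF5 (3.57% of all promoters). NUPR1, CEBPB, DDIT3, CTH and SLC7A11, whose changes are given in full below, had no match or no window. The windows below are those of members with a match that begins before the start, apart from ATF5. They include ASNS, the classic amino acid response gene. Each is printed 5′ to 3′ on the gene's own strand, and the capitals mark the matched element.
PPP1R15A: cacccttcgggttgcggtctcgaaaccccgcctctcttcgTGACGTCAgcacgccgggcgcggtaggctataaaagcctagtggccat
PPP1R15B: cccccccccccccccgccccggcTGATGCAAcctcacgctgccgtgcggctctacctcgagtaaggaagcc
ATF3: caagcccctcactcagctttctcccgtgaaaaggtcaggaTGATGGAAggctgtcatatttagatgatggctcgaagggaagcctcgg
CHAC1: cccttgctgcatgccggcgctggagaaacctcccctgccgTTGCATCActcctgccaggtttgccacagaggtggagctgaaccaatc
CEBPG: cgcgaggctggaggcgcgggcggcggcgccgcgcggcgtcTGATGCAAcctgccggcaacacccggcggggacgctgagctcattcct
SLC1A5: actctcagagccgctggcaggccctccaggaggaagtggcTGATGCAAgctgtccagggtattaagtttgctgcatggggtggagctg
ASNS: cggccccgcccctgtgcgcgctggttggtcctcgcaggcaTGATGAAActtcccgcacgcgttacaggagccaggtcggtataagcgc
EIF2AK2: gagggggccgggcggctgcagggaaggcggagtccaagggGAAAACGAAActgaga
The PPP1R15A window lies at chr19:48872323-48872410 on the plus strand with its match beginning 58 bases before the annotated start, and the PPP1R15B window lies at chr1:204411997-204412067 on the minus strand with its match at 227 bases. The ATF3 (chr1:212565176-212565263), CHAC1 (chr15:40953222-40953309) and CEBPG (chr19:33374031-33374118) windows are on the plus strand, with matches 191, 209 and 42 bases upstream. The SLC1A5 (chr19:46784864-46784951), ASNS (chr7:97872429-97872516) and EIF2AK2 (chr2:37156971-37157026) windows are on the minus strand, with matches that begin 97, 68 and 6 bases upstream. The EIF2AK2 element therefore runs across the annotated start. SLC3A2 and SLC7A1 had a C/EBP-ATF match just after the start. A match is a run of letters in this window and not a measured binding site.

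The module did not move as 1 block. In SKBR3, 5 of 33 members rose (15.2%) and 8 fell (24.2%) at an adjusted p under 0.05 (limma, Benjamini-Hochberg over 12892 genes). Of all genes, 6.64% were higher, 17.1% lower and 23.7% called in either direction. Among the brighter 9209 genes kept by a 50th percentile filter, 768 rose and 2384 fell in SKBR3, with 6 members higher and 8 lower. The share of members that fell in SKBR3 was thus near that of these brighter genes. In MDA-468, 17 of 33 rose (51.5%) and 9 fell (27.3%), against 16.4% higher, 27% lower and 43.5% called. The share that fell in MDA-468 was thus that of all genes, and so no result about the module. The median log2 change of the 33 was -0.10 in SKBR3, where the median of all genes was -0.08, and 0.19 in MDA-468, where it was -0.02. The arrays of siControl and siChe-1 did not overlap for 24 members in SKBR3 (52.3% of all genes) and for 29 in MDA-468 (59.9% of all genes). The 5 genes that rose in both lines were ATF3, CEBPB, NUPR1, EIF2AK2 and PPP1R15A (4.85% of all genes rose in both). The 5 that fell in both were EIF2AK1, EIF2AK4, PHGDH, PSPH and MTHFD2 (9.32% of all genes). CTH alone was called in opposite directions, falling in SKBR3 and rising in the other line (1.37% of all genes). A called change of at least 1 on the log2 scale was reached by 5 members in SKBR3 (2.68% of all genes) and by 6 in MDA-468 (5.25% of all genes).

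**Figure D1:**
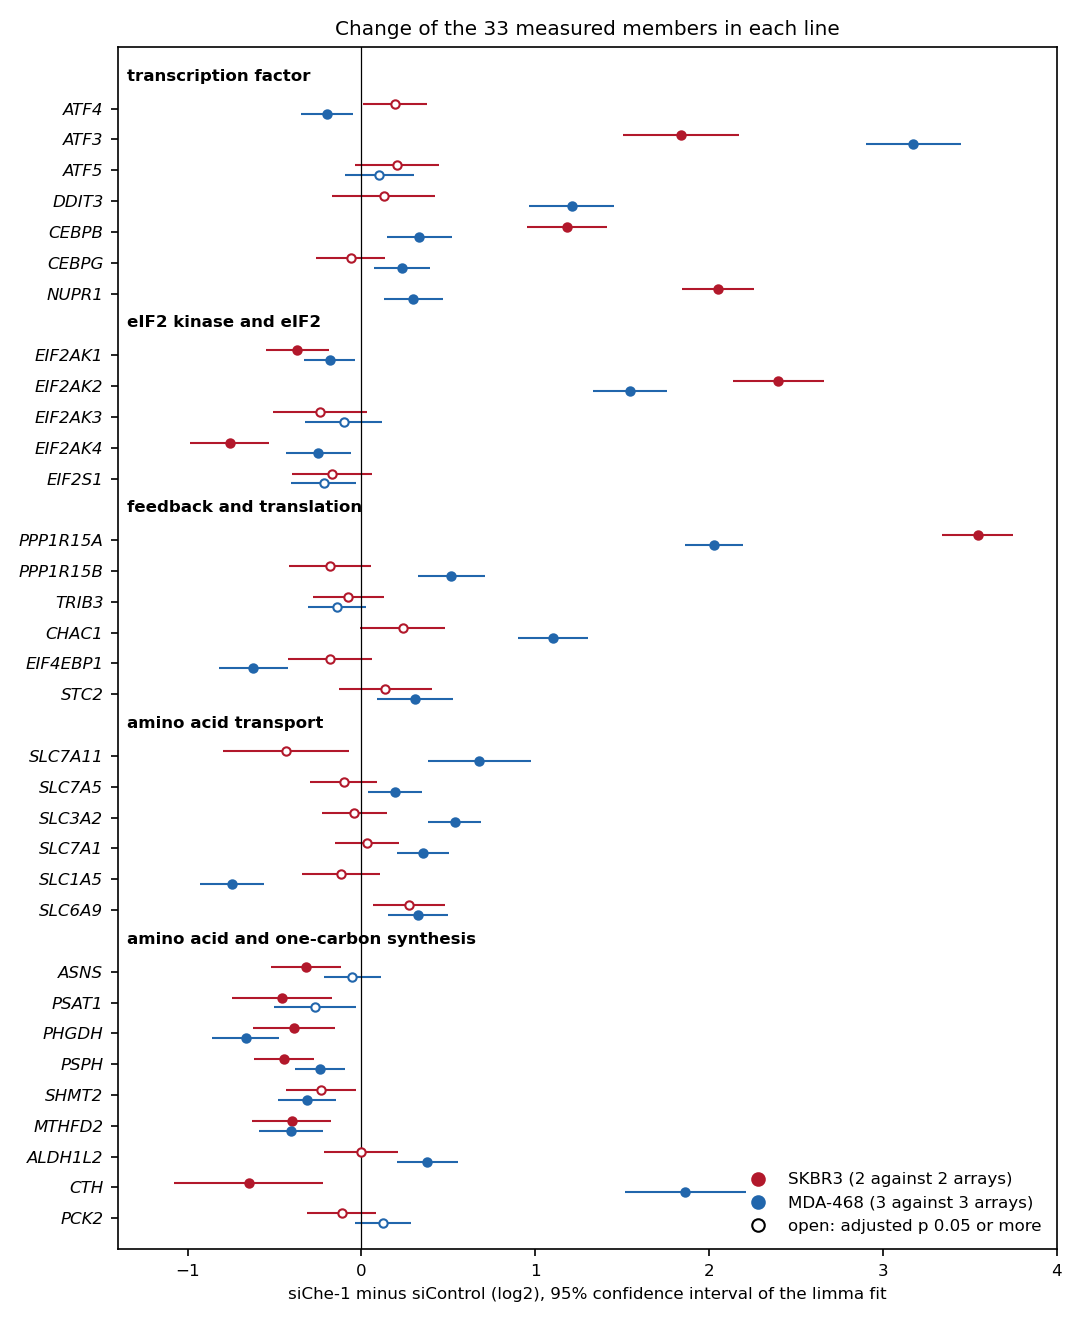
Log2 change (siChe-1 minus siControl, horizontal axis) of the 33 measured members, grouped by role, in SKBR3 (red) and MDA-468 (blue), with bars for the 95% interval of the limma fit and open points for changes that were not called. PPP1R15A, EIF2AK2 and ATF3 lie far to the right in both lines, NUPR1 and CEBPB lie further out in SKBR3, and CTH lies at -0.65 in SKBR3 and 1.86 in MDA-468.

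Of the 4 eIF2 kinases, the double-stranded RNA sensor rose and the amino acid and heme sensors fell, in both lines. EIF2AK2, which encodes PKR and is itself an interferon-stimulated gene, read 9.11 and 9.30 in SKBR3 siControl and 11.72 and 11.48 in siChe-1, and in MDA-468 it went from 10.82, 10.79 and 10.75 to 12.20, 12.33 and 12.47. The groups were far from overlapping in either line, and the changes were 2.40 ± 0.12 (5.27-fold, adjusted p = 7.77e-08) and 1.55 ± 0.10 (2.92-fold, adjusted p = 3.26e-07). Beside it stand the interferon list's rises given above, whose part in this result was not tested.

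EIF2AK4, which encodes GCN2, the sensor of uncharged tRNA, read 8.11 and 8.20 in SKBR3 siControl against 7.53 and 7.26 in siChe-1, and 9.01, 9.00 and 8.93 against 8.69, 8.75 and 8.77 in MDA-468. Every depleted array was below every control array. The change was -0.76 ± 0.10 in SKBR3 (adjusted p = 0.000468), which placed it 237th from the lowest of 12892 genes, and -0.25 ± 0.08 in MDA-468 (adjusted p = 0.0328). The MDA-468 fall was lost when any 1 of the 6 MDA-468 arrays was left out (adjusted p from 0.0545 to 0.105). EIF2AK1, the heme-regulated kinase HRI, read 10.63 and 10.64 against 10.28 and 10.25 in SKBR3, a change of -0.37 ± 0.08 (adjusted p = 0.00917), and 11.18, 11.10 and 11.19 against 10.98, 10.95 and 11.00 in MDA-468, a change of -0.18 ± 0.07 (adjusted p = 0.0468). Its groups did not overlap, but the SKBR3 call was lost without siControl replicate 2 (adjusted p = 0.0560), and the MDA-468 call was lost without any 1 of 8 arrays, the 6 of that line and the 2 SKBR3 siControl arrays (adjusted p from 0.0581 to 0.147).

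EIF2AK3, which encodes PERK, the kinase of the endoplasmic reticulum, was not called in either line. It read 8.36 and 8.46 against 8.32 and 8.03 in SKBR3 and 8.91, 8.79 and 8.90 against 8.60, 8.82 and 8.87 in MDA-468, where the groups overlapped. The 95% intervals of the change ran from -0.51 to 0.03 and from -0.32 to 0.12. Without SKBR3 siChe-1 replicate 1 the SKBR3 value was -0.38 (adjusted p = 0.0324). Their shared substrate EIF2S1, the alpha subunit of eIF2, changed by -0.17 (adjusted p = 0.271) and -0.22 (adjusted p = 0.0603). Leaving out 1 array at a time thus left EIF2AK2 in both lines and EIF2AK4 in SKBR3 as the kinase changes that held throughout.

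The transcription factors called in SKBR3 all rose in MDA-468 as well, but by different amounts. Of 7 factors, 3 rose (42.9%) and none fell in SKBR3, against 6.64% and 17.1% of all genes. In MDA-468, 5 rose (71.4%) and 1 fell (14.3%), against 16.4% and 27% of all genes. ATF3, a stress-induced factor and a target of ATF4, read 6.35 and 6.45 in SKBR3 siControl and 8.42 and 8.05 in siChe-1. In MDA-468 it read 5.79, 5.97 and 6.18 against 9.10, 9.07 and 9.31, with the control mean under the filter level, so the sizes that rest on it (the fold, the rank and the gap between lines) are those of the values as deposited, and no measure of background was used here to bound them. The groups did not overlap in either line. The rises were 1.84 ± 0.15 (3.57-fold, adjusted p = 7.63e-06) and 3.18 ± 0.12 (9.04-fold, adjusted p = 6.22e-09), 136th and 52nd from the highest of all genes, and the rise was larger in MDA-468 by 1.34 (adjusted p = 0.000911).

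DDIT3, which encodes CHOP, the factor linked to death under prolonged stress, differed between the lines. It read 7.45 and 7.35 against 7.74 and 7.32 in SKBR3, where the groups overlapped, and 7.59, 7.34 and 7.45 against 8.74, 8.60 and 8.66 in MDA-468, where they did not. The change was 0.13 ± 0.14 in SKBR3 (95% interval -0.17 to 0.43, adjusted p = 0.554) and 1.21 ± 0.11 in MDA-468 (2.31-fold, adjusted p = 6.59e-06), a difference of -1.08 (adjusted p = 0.00168).

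NUPR1 and CEBPB showed the opposite order. NUPR1, a small stress-induced chromatin protein, read 9.28 and 9.13 against 11.22 and 11.30 in SKBR3 and 10.00, 9.94 and 9.95 against 10.23, 10.35 and 10.21 in MDA-468. Its groups were separate in both lines, with a rise of 2.05 ± 0.09 in SKBR3 (4.15-fold, adjusted p = 3.74e-08) and 0.30 ± 0.08 in MDA-468 (adjusted p = 0.00822), a difference of 1.75 (adjusted p = 6.72e-06). CEBPB, a C/EBP factor that serves inflammation and stress, read 8.71 and 8.88 against 10.02 and 9.94 in SKBR3 and 9.44, 9.36 and 9.56 against 9.83, 9.81 and 9.71 in MDA-468. It rose by 1.18 ± 0.10 (2.27-fold, adjusted p = 1.31e-05) and by 0.33 ± 0.08 (adjusted p = 0.00781), a difference of 0.85 (adjusted p = 0.00140). CEBPG, a C/EBP partner of ATF4, rose in MDA-468 by 0.23 (adjusted p = 0.0228), lost without any 1 of 5 arrays, the 3 siControl arrays and siChe-1 replicates 1 and 2 (adjusted p from 0.0573 to 0.0986). ATF5, an ATF4-like factor that is also controlled by translation, changed by 0.20 (adjusted p = 0.211) and 0.10 (adjusted p = 0.397).

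**Figure D2:**
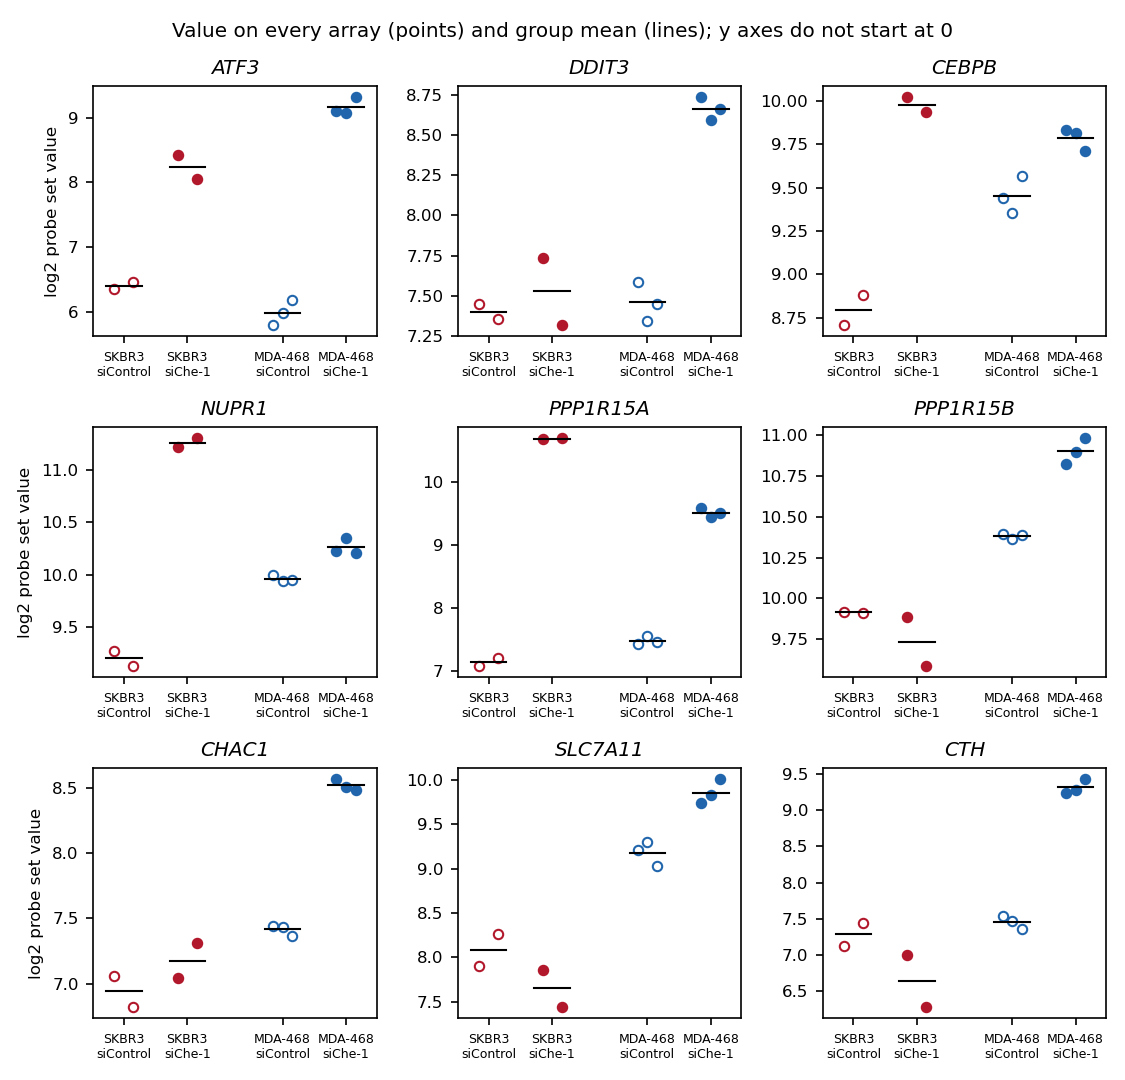
Log2 value on each of the 10 arrays for 9 members, 1 panel each, by line and transfection (open points siControl, filled points siChe-1, lines the group means; the axes do not start at 0). PPP1R15A and ATF3 are separate in both lines, NUPR1 and CEBPB are lifted mainly in SKBR3, and DDIT3, CHAC1 and CTH are lifted in MDA-468.

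ATF4 mRNA itself could not be given 1 direction in MDA-468, because its 2 probe sets, annotated to different RefSeq transcripts, moved apart. The brighter set read 10.79 and 10.77 against 10.99 and 10.95 in SKBR3 and 12.01, 11.96 and 11.91 against 11.72, 11.78 and 11.78 in MDA-468. Depleted arrays were all above the controls in SKBR3 and all below them in MDA-468, with changes of 0.19 ± 0.08 (adjusted p = 0.120) and -0.20 ± 0.07 (adjusted p = 0.0340). The MDA-468 call was lost without any 1 of that line's 6 arrays (adjusted p from 0.0533 to 0.133).

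The dimmer ATF4 set read 9.31 and 9.06 against 10.06 and 10.17 in SKBR3, and 9.12, 9.41 and 9.52 against 9.75, 9.86 and 9.66 in MDA-468, higher in the depleted cells of both lines. Its changes were 0.93 ± 0.14 (adjusted p = 0.000913) and 0.40 ± 0.11 (adjusted p = 0.0132). The mean of both sets gave 0.56 in SKBR3 (adjusted p = 0.00184) and 0.10 in MDA-468 (adjusted p = 0.318). The brighter set differed between lines by 0.39 (adjusted p = 0.0272), a call lost without any 1 of 6 arrays: the SKBR3 siControl arrays and replicates 1 and 2 of both MDA-468 groups (adjusted p from 0.0602 to 0.0817). The dimmer set differed by 0.53 (adjusted p = 0.0640).

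**Figure D3:**
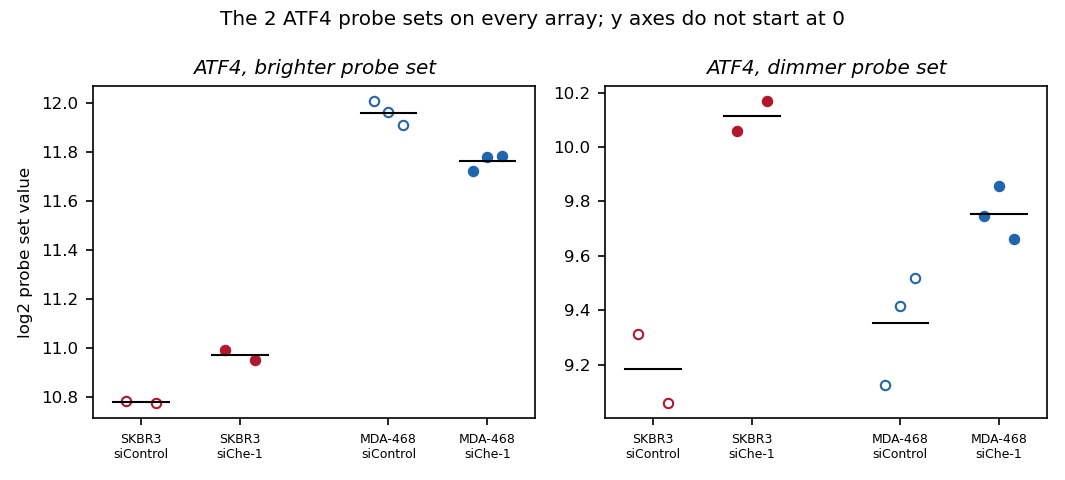
Log2 values of the 2 ATF4 probe sets on each array, by line and transfection, with lines for the group means. The brighter set falls slightly in MDA-468 siChe-1 (-0.20), and the dimmer set is higher in siChe-1 in both lines (0.93 and 0.40).

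Among the feedback genes, the stress-induced eIF2 phosphatase subunit rose most. PPP1R15A, which encodes GADD34 and directs a phosphatase to eIF2 so that translation resumes, read 7.08 and 7.21 in SKBR3 siControl and 10.69 and 10.69 in siChe-1, and 7.43, 7.56 and 7.47 against 9.58, 9.44 and 9.51 in MDA-468. The groups lay several log2 units apart in SKBR3, a rise of 3.54 ± 0.09 (11.7-fold, adjusted p = 2.41e-10), and the rise in MDA-468 was 2.03 ± 0.08 (4.08-fold, adjusted p = 4.48e-09). It ranked 60th from the highest of all genes in SKBR3 and 128th in MDA-468, and the rise was larger in SKBR3 by 1.52 (adjusted p = 1.70e-05).

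PPP1R15B, the constitutive counterpart of PPP1R15A, also differed between the lines. It read 9.92 and 9.91 against 9.88 and 9.59 in SKBR3 and 10.40, 10.37 and 10.39 against 10.82, 10.90 and 10.98 in MDA-468. The SKBR3 change was -0.18 ± 0.11 (95% interval -0.42 to 0.06, adjusted p = 0.255), and the MDA-468 change was 0.52 ± 0.09 (adjusted p = 0.000606), a difference of -0.70 (adjusted p = 0.00559). Without SKBR3 siChe-1 replicate 1 the SKBR3 value passed the threshold, at -0.33 (adjusted p = 0.0193).

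CHAC1, which degrades glutathione and is a sensitive ATF4 and CHOP target, read 7.06 and 6.82 against 7.05 and 7.31 in SKBR3 and 7.45, 7.44 and 7.37 against 8.56, 8.51 and 8.49 in MDA-468. Its groups overlapped in SKBR3, with a change of 0.24 ± 0.11 (95% interval -0.01 to 0.48, adjusted p = 0.153), and were separate in MDA-468, with a rise of 1.10 ± 0.09 (2.15-fold, adjusted p = 3.04e-06). The difference was -0.86 (adjusted p = 0.00207), and without SKBR3 siChe-1 replicate 1 the SKBR3 value was 0.37 (adjusted p = 0.0235). TRIB3, a pseudokinase that dampens ATF4 and is a standard readout of the pathway, was not called in either line, at -0.07 (95% interval -0.28 to 0.13, adjusted p = 0.619) and -0.14 (95% interval -0.31 to 0.03, adjusted p = 0.163).

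EIF4EBP1, a repressor of cap-dependent translation and an ATF4 target, fell in MDA-468 by 0.62 on the log2 scale (adjusted p = 0.000192) and changed by -0.18 in SKBR3 (adjusted p = 0.273). Its difference of 0.44 was at the threshold (adjusted p = 0.04999) and was lost without any 1 of 8 arrays, all but SKBR3 siChe-1 replicate 1 and MDA-468 siControl replicate 3 (adjusted p from 0.0685 to 0.148). STC2, a secreted glycoprotein induced by ATF4, was between 4.86 and 5.21 on the SKBR3 arrays, below the filter level, and rose in MDA-468 by 0.31 (adjusted p = 0.0262). That rise was lost without any 1 of 4 arrays, siControl replicates 2 and 3 and siChe-1 replicates 1 and 2 (adjusted p from 0.0756 to 0.101).

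Amino acid transporters were called in MDA-468 and not in SKBR3, but the difference between the lines was called for only 3 of 6. Of 6, 5 rose (83.3%) and 1 fell (16.7%) in MDA-468, against 16.4% and 27% of all genes. In SKBR3, 0 passed by limma, where 23.7% of all genes were called. An unadjusted p under 0.05 was reached there by 2 of the 6, and by 4698 of all 12892 genes. SLC7A11, the cystine importer xCT, read 7.90 and 8.27 against 7.86 and 7.44 in SKBR3 and 9.21, 9.30 and 9.03 against 9.74, 9.83 and 10.01 in MDA-468. The depleted arrays were lowest in SKBR3 and highest in MDA-468, with changes of -0.44 ± 0.16 (95% interval -0.80 to -0.07, adjusted p = 0.0787) and 0.68 ± 0.13 (adjusted p = 0.00173). The difference was -1.11 (adjusted p = 0.00458), and without SKBR3 siChe-1 replicate 1 the SKBR3 value was -0.65 (adjusted p = 0.0116).

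SLC3A2, the heavy chain that xCT and LAT1 need at the membrane, read 12.27 and 12.14 against 12.19 and 12.13 in SKBR3, where the groups overlapped. In MDA-468 it read 10.94, 10.97 and 10.94 against 11.49, 11.48 and 11.49, a rise of 0.54 ± 0.07 (adjusted p = 8.97e-05) beside an SKBR3 change of -0.04 (95% interval -0.23 to 0.15, adjusted p = 0.780). The difference was -0.58 (adjusted p = 0.00447). SLC7A5, the LAT1 light chain, rose in MDA-468 by 0.19 (adjusted p = 0.0461), a call lost without any 1 of the 6 MDA-468 arrays (adjusted p from 0.0698 to 0.171). Its SKBR3 change was -0.10 (adjusted p = 0.448), and the difference of -0.30 was not called (adjusted p = 0.0917).

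SLC7A1, a cationic amino acid carrier, rose in MDA-468 by 0.36 (adjusted p = 0.00145), and SLC6A9, a glycine carrier, by 0.33 (adjusted p = 0.00529). Their SKBR3 changes were 0.03 (adjusted p = 0.828) and 0.27 (adjusted p = 0.0592). The differences between the lines were not called, at -0.32 (adjusted p = 0.0602) and -0.05 (adjusted p = 0.823). SLC1A5, the glutamine carrier ASCT2, was the exception. It read 10.30, 10.33 and 10.27 against 9.53, 9.52 and 9.61 in MDA-468, a change of -0.75 ± 0.08 (adjusted p = 3.00e-05), while in SKBR3 it changed by -0.12 (adjusted p = 0.460), a difference of 0.63 (adjusted p = 0.00742). Its dimmer probe set gave -0.25 in MDA-468 (adjusted p = 0.0581) and a difference of 0.19 (adjusted p = 0.453).

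The synthesis genes that were called all fell in SKBR3 and were split in MDA-468. Of 9 tested, 6 fell (66.7%) and none rose in SKBR3, against 17.1% of all genes lower and 6.64% higher. In MDA-468, 4 fell (44.4%) and 2 rose (22.2%), against 27% and 16.4% of all genes. The difference between the lines was called only for CTH, so a call in 1 line is no difference for the others. The serine pathway is PHGDH, PSAT1 and PSPH in turn. PHGDH, its entry enzyme, read 9.96 and 9.73 against 9.52 and 9.39 in SKBR3 and 11.87, 11.82 and 11.87 against 11.24, 11.26 and 11.06 in MDA-468, with no overlap in either line. It fell by 0.39 (adjusted p = 0.0236) and by 0.67 (adjusted p = 0.000101) on the log2 scale. PSAT1 fell by 0.46 in SKBR3 (adjusted p = 0.0277) and changed by -0.27 in MDA-468 (adjusted p = 0.0657). PSPH, which has a near-identical pseudogene copy and is uncertain for that reason, changed by -0.45 (adjusted p = 0.00278) and -0.24 (adjusted p = 0.0118), and its dimmer probe set by -0.18 (adjusted p = 0.186) and -0.12 (adjusted p = 0.238).

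MTHFD2, the mitochondrial folate enzyme, fell by 0.40 in SKBR3 (adjusted p = 0.0177) and by 0.41 in MDA-468 (adjusted p = 0.00228), where its dimmer probe set gave -0.31 (adjusted p = 0.0535). SHMT2, which splits serine in mitochondria, fell in MDA-468 by 0.31 (adjusted p = 0.00550) beside -0.23 in SKBR3 (adjusted p = 0.0900). ASNS, asparagine synthetase, fell by 0.32 in SKBR3 (adjusted p = 0.0275) and changed by -0.05 in MDA-468 (95% interval -0.22 to 0.11, adjusted p = 0.617). ALDH1L2, another mitochondrial folate enzyme, rose in MDA-468 by 0.38 (adjusted p = 0.00252), with 0.00 in SKBR3 (95% interval -0.22 to 0.21, adjusted p = 0.993), and PCK2, which makes phosphoenolpyruvate in mitochondria, changed by -0.11 (adjusted p = 0.404) and 0.12 (adjusted p = 0.203).

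Most of the SKBR3 falls lost the call when 1 array was left out. Leaving out an SKBR3 array leaves 1 array in a group, so precision is lost as well. In the fits that lost the call, ASNS ran from -0.35 to -0.23 and PSAT1 from -0.50 to -0.25. ASNS and PSAT1 each lost the call without siControl replicate 1, siControl replicate 2 or siChe-1 replicate 2 (adjusted p from 0.0663 to 0.141 and from 0.0679 to 0.168). PHGDH lost it without siControl replicate 1 or siChe-1 replicate 2 (adjusted p from 0.105 to 0.149), and MTHFD2 without siControl replicate 2 or siChe-1 replicate 2 (adjusted p from 0.0927 to 0.119). With SKBR3 fitted alone, EIF2AK4 was the only one of the 8 SKBR3 falls still called, and 669 genes were called in all, against 3057. In MDA-468, PSPH lost it without siControl replicate 1 (adjusted p = 0.0524).

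CTH, the enzyme that releases cysteine from cystathionine, had the widest gap between the lines of any member. It read 7.12 and 7.45 against 7.00 and 6.28 in SKBR3, and 7.54, 7.47 and 7.36 against 9.24, 9.28 and 9.43 in MDA-468. Depleted arrays were all below the controls in SKBR3, with siChe-1 replicate 2 the lowest, and all far above them in MDA-468. The changes were -0.65 ± 0.19 (adjusted p = 0.0335) and 1.86 ± 0.16 (3.64-fold, adjusted p = 3.77e-06), a difference of -2.51 (adjusted p = 8.05e-05). The SKBR3 call was lost without SKBR3 siControl replicate 2, SKBR3 siChe-1 replicate 2, or replicate 2 of either MDA-468 group (adjusted p from 0.0516 to 0.220, values from -0.65 to -0.29), so only the rise in MDA-468 and the difference held in every fit.

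The difference between the lines was called for 15 of 33 members, against 19.2% of all genes. Relative to MDA-468, 7 changes were higher in SKBR3 (8.49% of all genes) and 8 were lower (10.7% of all genes). By role, the calls were 5 of 7 transcription factors, 4 of 6 feedback and translation genes, 3 of 6 transporters, 2 of 5 kinase and eIF2 genes, and 1 of 9 synthesis genes. NUPR1, PPP1R15A, EIF2AK2 and CEBPB rose further in SKBR3, the line with the shallower AATF depletion, and ATF3, DDIT3, CHAC1, CTH, SLC7A11, SLC3A2 and PPP1R15B were higher in MDA-468. EIF2AK4 fell further in SKBR3, by 0.51 on the log2 scale (adjusted p = 0.0213), a call lost without SKBR3 siControl replicate 2, MDA-468 siControl replicate 3 or MDA-468 siChe-1 replicate 2 (adjusted p from 0.0544 to 0.0853).

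**Figure D4:**
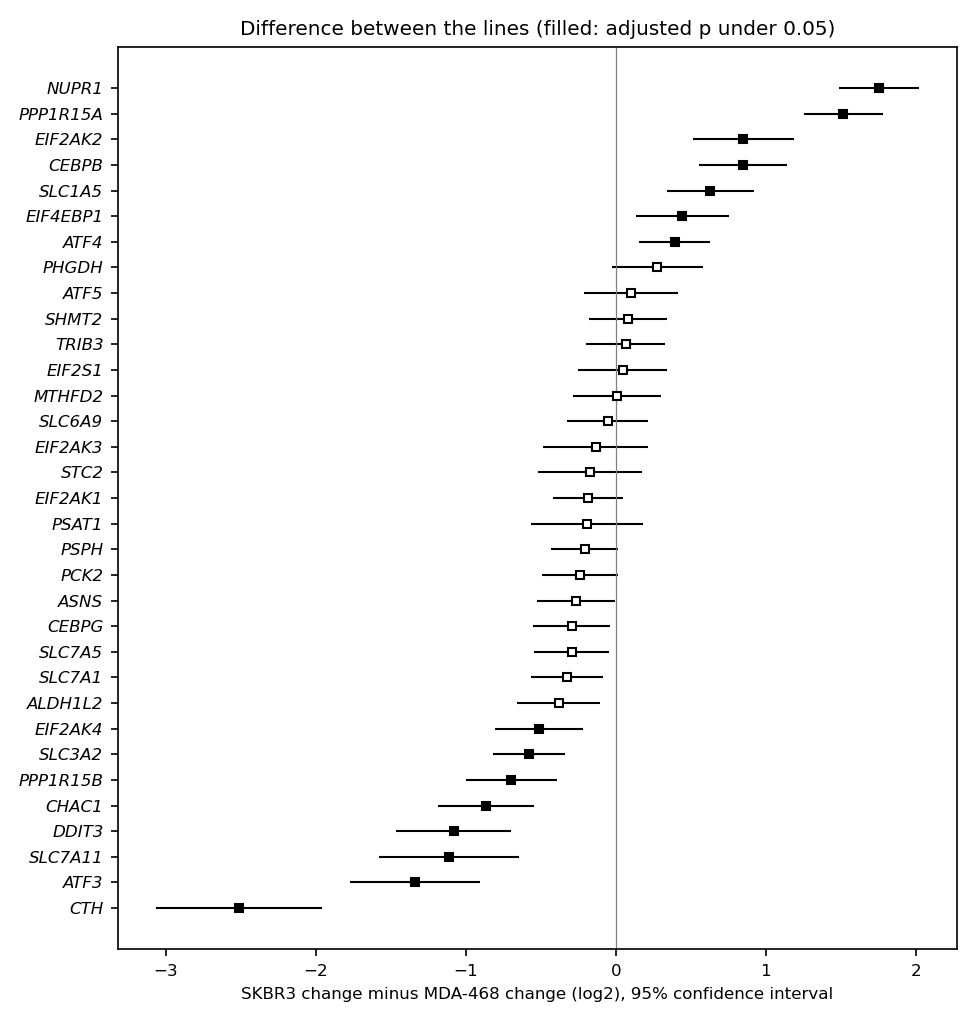
Difference between the lines (SKBR3 change minus MDA-468 change, log2) for each of the 33 members with its 95% interval, called members filled. Values run from -2.51 for CTH to 1.75 for NUPR1.

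Other genes of the pathway, taken from lists of related genes, gave a setting for the members. A further list of 13 genes held eIF2 and eIF2B subunits, kinase cofactors and related factors. Of these, 4 fell (30.8%, against 17.1% of all genes) and none rose (6.64% of all genes) in SKBR3. In MDA-468, 10 fell (76.9%, against 27% of all genes) and none rose (16.4% of all genes). In SKBR3 the smallest p-values were those of OMA1, a mitochondrial stress protease (-0.53, adjusted p = 0.0199), EIF2A (-0.46, adjusted p = 0.0232) and IMPACT, an inhibitor of GCN2 (-0.64, adjusted p = 0.0263). Despite its name, EIF2A is a separate initiation factor and not a subunit of eIF2. In MDA-468 they were those of EIF2B4 (-0.83, adjusted p = 9.89e-06), OMA1 (-0.84, adjusted p = 0.000132) and EIF2B2 (-0.44, adjusted p = 0.00151). The list's medians were -0.28 and -0.33.

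Of 10 further tested genes of amino acid transport and synthesis, 5 fell (50%) and none rose in SKBR3, against 17.1% and 6.64% of all genes. In MDA-468, 5 fell (50%) and 1 rose (10%), against 27% and 16.4% of all genes. The medians were -0.32 and -0.31. SHMT1, the cytosolic serine-splitting enzyme, fell by 0.72 (adjusted p = 0.000175) and 0.75 (adjusted p = 7.96e-06), and GOT1, which makes aspartate, fell by 0.55 (adjusted p = 0.00274) and 0.54 (adjusted p = 0.000223). The other leading genes were SLC38A1, a glutamine carrier, in SKBR3 (-0.49, adjusted p = 0.00601) and ALDH18A1, the proline synthesis enzyme, in MDA-468 (-0.83, adjusted p = 7.07e-06).

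Of 13 tested stress regulators outside the module, 4 rose (30.8%) and 2 fell (15.4%) in SKBR3, against 6.64% and 17.1% of all genes. In MDA-468, 8 rose (61.5%) and 2 fell (15.4%), against 16.4% and 27% of all genes. The medians were 0.10 and 0.43. TNFRSF10B, a death receptor under CHOP control, rose by 0.93 (adjusted p = 6.10e-05) and 1.25 (adjusted p = 3.41e-07). In SKBR3 it was followed by VEGFA, an angiogenic factor (0.80, adjusted p = 0.000158), and DDIT4, an mTOR inhibitor (0.54, adjusted p = 0.00212). In MDA-468 GADD45A, a growth arrest gene, led (1.90, adjusted p = 2.64e-08), with CREBRF, a regulator of the unfolded protein response, the third (0.74, adjusted p = 0.000240).

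**Figure D5:**
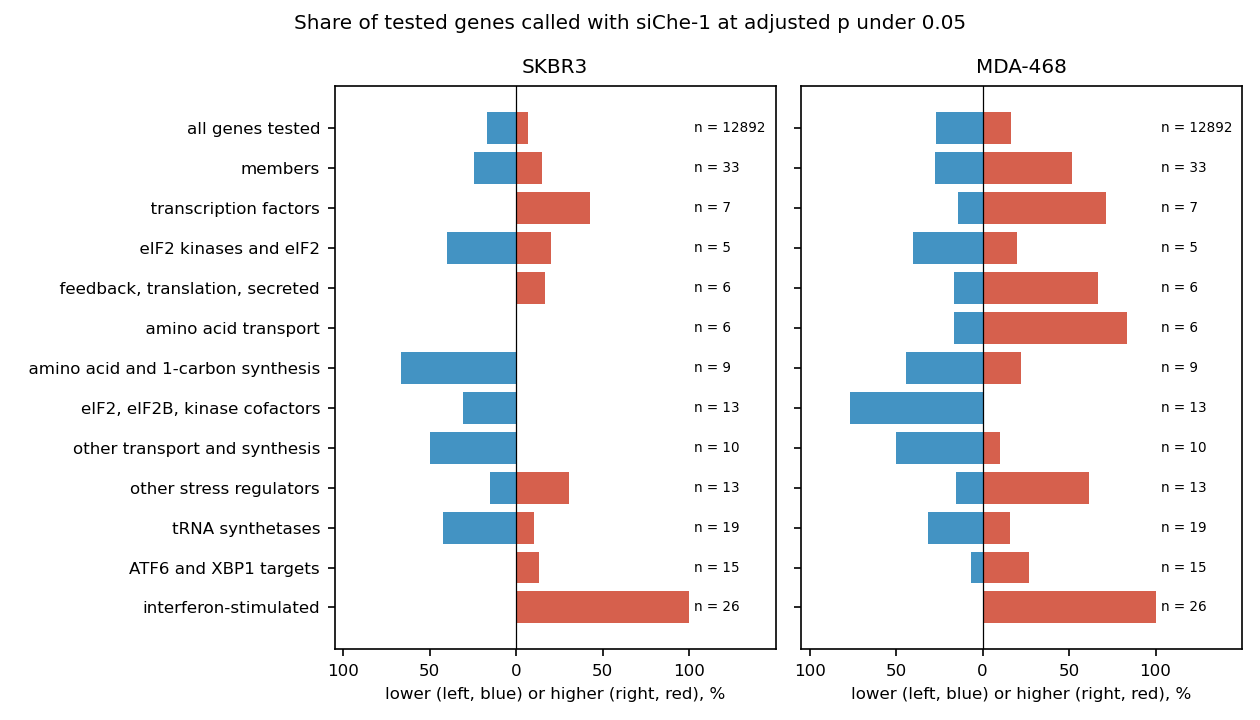
Share (%) of tested genes called higher (right) and lower (left) in each line at an adjusted p under 0.05, for the members by role, the other lists and all genes tested. Members of the transporter and feedback groups are called mostly higher in MDA-468, synthesis genes mostly lower in SKBR3, and all interferon-stimulated genes higher in both lines.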

How the data were processed

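Total RNA of SKBR3 and MDA-468 cells was measured on 10 Affymetrix whole-transcript arrays. The authors deposited log2 values per probe set, for which the submitters' processing notes name RMA and the Affymetrix Expression Console. Software versions, and whether both lines entered the same normalization run, were not given in the sources used here. Probe sets were named from the platform annotation: 19460 of 33297 carried 1 gene symbol (19429 matched RefSeq by gene ID), 1754 several and 12083 none. The highest-mean probe set stood for a gene, and genes at or above the 30th percentile of mean log2 value were tested. A single model of 4 group means over all arrays was fitted with limma 3.58.1 in R 4.3.3 (lmFit, eBayes; 6 residual degrees of freedom), with 2-sided p-values adjusted by Benjamini-Hochberg over all genes tested and a threshold of 0.05. The scripts were tested on simulated data. Changes are siChe-1 minus siControl on the log2 scale with SE. Values of different probe sets were not compared, and levels of the 2 lines only for line markers, without a test. The number of arrays limits the precision.

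The members and lists were chosen with earlier results of these data known. Given in full were members called with an absolute log2 change of at least 1, the 4 eIF2 kinases, ATF4, and members with opposite changes and a called difference; other lists are given by counts and their 3 smallest p-values per line. Alternatives were no filter, a 50th percentile filter, each line fitted alone, a replicate block, repeated quantile normalization, median centring, the mean of a gene's probe sets, a trended robust prior, and leaving out each array. Added after seeing the data were the lower-mean probe set of 4 members and a crossed block.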

Additional observations from a re-analysis of the deposited data

Results flagged for a closer look

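For 15 members the change after siChe-1 differed between SKBR3 and MDA-468 in a test of the difference itself, the interaction contrast of the limma model. The values are log2 differences, SKBR3 minus MDA-468, and negative values mean a higher change in MDA-468. Among the transcription factors the differences were -1.34 for ATF3 and -1.08 for DDIT3, and 0.39 for ATF4, 0.85 for CEBPB and 1.75 for NUPR1. Of the kinases, EIF2AK4 differed by -0.51 and EIF2AK2 by 0.85. The feedback and translation genes gave -0.86 for CHAC1, -0.70 for PPP1R15B, 0.44 for EIF4EBP1 and 1.52 for PPP1R15A. Of the transporters, SLC7A11 differed by -1.11, SLC3A2 by -0.58 and SLC1A5 by 0.63. CTH, the remaining gene, differed by -2.51. AATF mRNA was also depleted to different depths in the lines (difference 1.05), and the part of that in these differences was not tested. No group held 4 or more arrays, so single arrays were not screened as outliers.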

How the results depend on the processing

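Of the 13 member calls in SKBR3, 6 held in all 20 alternatives (ATF3, CEBPB, NUPR1, EIF2AK2, PPP1R15A and EIF2AK4), of the 26 in MDA-468 17 held, and of the 15 differences 10 held in all 19 that could be fitted. Leaving out 1 array at a time gave 5 to 7 members higher and 3 to 12 lower in SKBR3, 14 to 17 higher and 5 to 11 lower in MDA-468, 12 to 20 that differed between lines, and an AATF change of -0.72 to -0.60 and -1.77 to -1.67. Of the SKBR3 falls, 5 were left without siControl replicate 1, 3 without siControl replicate 2, 12 without siChe-1 replicate 1 and 3 without siChe-1 replicate 2; over all genes SKBR3 calls were 2069, 1292, 5370 and 1768 against 3057. Without 1 MDA-468 array, 14 to 16 members were higher and 5 to 6 lower there, and 12 to 14 differed between lines. Over all genes these fits called 4544 to 4964 in MDA-468 and 1686 to 2124 differences, against 5602 and 2471. The member counts thus dropped together with those of all genes. Fitted alone, SKBR3 had 1 member lower, EIF2AK4, and 669 genes called. With the lower-mean probe sets, 5 members were lower in MDA-468, and the ATF4 change there reversed to 0.40, or to 0.10 with the mean of its sets. In SKBR3, DDIT3 ran from -0.083 without siChe-1 replicate 1 to 0.34 without siChe-1 replicate 2, and SLC3A2 from -0.11 without siControl replicate 2 to 0.025 without siControl replicate 1, none of them called. The cause was not tested. STC2 was not tested under the 50th percentile filter, and a difference between lines needs both lines in the fit.

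Deviations from the group mean were not alike in same-numbered arrays, which correlated at -0.556 in SKBR3 and at -0.491, 0.00154 and -0.276 in MDA-468. With 2 arrays a group the SKBR3 deviations are mirror images, so the crossed pairs stood at 0.556 by construction. Differently numbered MDA-468 pairs ran from -0.202 to 0.444. Whether arrays were paired in another order cannot be told from these values. With the replicate block, 5 members were higher and 2 lower in SKBR3, 15 higher and 5 lower in MDA-468, and 11 differed between lines; calls over all genes were 1249, 4412 and 1104, against 3057, 5602 and 2471. With the SKBR3 pairing crossed, an alternative added after seeing the data, 7 members were higher and 9 lower there, and 4271 genes were called.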

Other observations

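Genes outside the module that are read beside it in stress studies were measured in the same fit. Of 15 genes of the ATF6 and XBP1 arms of the unfolded protein response, 2 rose in SKBR3 and 4 rose and 1 fell in MDA-468, with medians of -0.03 and 0.15. The share higher was 13.3% in SKBR3 and 26.7% in MDA-468, above the 6.64% and 16.4% of all genes. The share lower was 0% and 6.67%, below the 17.1% and 27% of all genes. Called in either direction were 13.3% and 33.3%, against 23.7% and 43.5% of all genes. The differences in shares were not tested. XBP1, a factor of that response whose splicing was not measured here, rose by 0.34 (limma, adjusted p = 0.0205) and 0.50 (adjusted p = 0.000256). SDF2L1, a lumenal chaperone cofactor, rose in SKBR3 by 0.34 (adjusted p = 0.0333), and DNAJB9 and HSPA5, chaperones of the same compartment, rose in MDA-468 by 0.68 (adjusted p = 0.000605) and 0.37 (adjusted p = 0.00247).

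Of 19 cytosolic aminoacyl-tRNA synthetases, which charge tRNA and include several ATF4 targets, 2 rose and 8 fell in SKBR3 and 3 rose and 6 fell in MDA-468, with medians of -0.24 and -0.15. In SKBR3 this was 10.5% higher and 42.1% lower, against 6.64% and 17.1% of all genes. In MDA-468 it was 15.8% higher and 31.6% lower, close to the 16.4% and 27% of all genes, and so no result about these enzymes. WARS1, the tryptophanyl enzyme and a known interferon-inducible gene, rose by 0.67 (adjusted p = 0.00348) and 2.54 (adjusted p = 7.40e-09). EPRS1 and IARS1 fell in SKBR3 by 0.47 (adjusted p = 0.00601) and 0.37 (adjusted p = 0.0119), and QARS1 and FARSB fell in MDA-468 by 0.79 (adjusted p = 6.04e-06) and 0.58 (adjusted p = 0.000394).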
